A study of Mus musculus with 9 samples.

Results

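The granins and the granule membrane proteins Ptprn and Ptprn2 were followed across RNA sequencing counts of mouse pancreatic islets, small endocrine organs that secrete insulin, glucagon and somatostatin. The 7 genes Chga, Chgb, Scg2, Scg3, Vgf, Ptprn and Ptprn2 were taken by symbol from a table of 52459 gene symbols, and all 7 were found and passed the low-count filter, as did 16826 genes in all. Islets came from mice 12 weeks old that were db/db (homozygous for the db allele of Lepr, the leptin receptor gene), db/+ (heterozygous) or wild type (WT), with 3 libraries in each group. Every library, WT included, carries the strain label BKS.Cg-Dock7m +/+ Leprdb/J, and the labels do not say how the Dock7m allele was distributed among the mice. They also do not give sex, or say whether a library is 1 animal or pooled islets, so the spread behind each p value is that between libraries and may be technical.

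Granins are acidic soluble proteins that condense with prohormones in the trans-Golgi network, and they are packed, cut into peptides and released with the hormones of endocrine cells. Ptprn (IA-2) and Ptprn2 (IA-2 beta, phogrin) are transmembrane proteins of the granule with a phosphatase-like domain that has little or no activity toward phosphotyrosine, and both are autoantigens in human type 1 diabetes. In beta cells these proteins share the granule with insulin, while alpha and delta cells use granins and Ptprn family proteins in granules of their own.

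Levels are given as CPM, counts per 1000000 of a library size adjusted by TMM, a trimmed mean of ratios between libraries, and differences as log2 fold changes ± SE with adjusted p from edgeR's quasi-likelihood test over all 16826 tested genes, where a gene was called at an adjusted p under 0.05. Library totals ran from 8860024 to 11734886 counts, and the 7 genes together took 2.50% to 3.45% of db/db counts, 1.97% to 2.21% of db/+ counts and 1.81% to 2.02% of WT counts. The lowest count of any of the 7 genes was 174 reads, for Vgf in WT 3, so depth limited none of them. Lepr counts were low in every library (2.05 to 9.47 CPM in db/db, 1.52 to 4.37 CPM in db/+, 1.72 to 3.17 CPM in WT), and because db alters Lepr splicing these whole-gene counts leave the genotype unchecked. Beta cell markers summed to 91785 to 124874 CPM in db/db, 102778 to 114892 CPM in db/+ islets and 82467 to 120262 CPM in WT. Most of each sum was Ins1, Ins2 and Iapp, so it says little of the other listed genes. None of the 9 listed beta cell genes was at 0 in all libraries. WT 1, WT 3 and db/db 1 held both Xist and Y-linked counts, the other db/db libraries were high in Xist and near 0 in Y-linked genes, and the 3 db/+ libraries and WT 2 the reverse. Sample titles start with the letter H for the db/db libraries and WT 3 and with G for the others; the labels do not say what this title letter stands for. Counts that overlap ribosomal RNA (Gm42418 and Lars2) took 17.9% of db/db 1 and 13.3% of db/db 2, and 2.58% or less of the other libraries. Acinar markers summed to 14308 to 38672 CPM in db/db, highest in db/db 1, 12360 to 28113 CPM in db/+ islets and 5353 to 10260.1 CPM in WT.

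Promoter sequences of 6 of the 7 genes were found in the RefSeq promoter table of GRCm38.p6, the assembly of mm10; Vgf was not found there. The 130 bases before the transcript start are shown for 3 granin genes, since the element described next is known from granin promoters. These are the granin genes whose window lies wholly outside the annotated gene and holds TGACGTNA, a cAMP response element or its near match. Of them, Chgb and Scg2 were called higher in db/db islets and Chga was not. Scg3 and Ptprn, also called higher, had no TGACGTNA in the 250 bases searched. A role of the element in these differences was not tested. Capitals mark the 8 letters aligned with the element, and the regions, in order, are chr12:102554811-102554940 on the plus strand, chr2:132781512-132781641 on the plus strand and chr1:79440027-79440156 on the minus strand.
Chga: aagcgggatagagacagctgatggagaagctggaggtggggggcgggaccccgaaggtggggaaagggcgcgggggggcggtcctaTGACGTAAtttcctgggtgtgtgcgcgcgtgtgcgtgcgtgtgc
Chgb: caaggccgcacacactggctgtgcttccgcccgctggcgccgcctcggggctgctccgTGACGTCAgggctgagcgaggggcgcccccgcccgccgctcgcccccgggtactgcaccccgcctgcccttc
Scg2: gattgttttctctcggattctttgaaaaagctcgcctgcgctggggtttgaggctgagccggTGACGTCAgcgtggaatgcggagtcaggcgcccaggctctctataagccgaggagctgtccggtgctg
The palindrome TGACGTCA stood 72 to 65 bases before the start of Chgb and 68 to 61 bases before that of Scg2, and Chga had TGACGTAA 44 to 37 bases before its start. In the 250 bases before a start, searched on both strands, TGACGTCA was present in 1.55% of 32851 promoters, TGACGTNA, which includes it, in 2.52%, and the shorter TGACG, which both contain, in 17.8%. Scg3 had TGACG 30 to 26 bases before the listed start, and Ptprn had it at 117 to 113 bases and, on the other strand, at 80 to 76 bases before the first of 2 listed starts. Scg2 also had TATAA, found in 22.8% of promoters, 27 to 23 bases before its start. No TGACG lay in the 250 bases searched for Ptprn2 or before the second start of Ptprn. A match of letters is a description of the sequence and not of binding.

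In db/db islets, 4 of the 5 granin transcripts and 1 of the 2 granule membrane transcripts were more abundant than in WT islets. Vgf was 11.5-fold higher, Chgb 4.49-fold, Scg3 2.70-fold, Ptprn 2.69-fold and Scg2 2.2-fold, while Chga and Ptprn2 did not pass the test. That makes 5 of 7 genes called, each of them higher, where 21.8% of all tested genes were called higher and 41.7% were called in either direction. The median log2 fold change of the 7 genes was 1.43, against 0.006 over all tested genes. A change in the number of cells of a type and a change in RNA per cell cannot be told apart in whole islets.

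**Figure D1:**
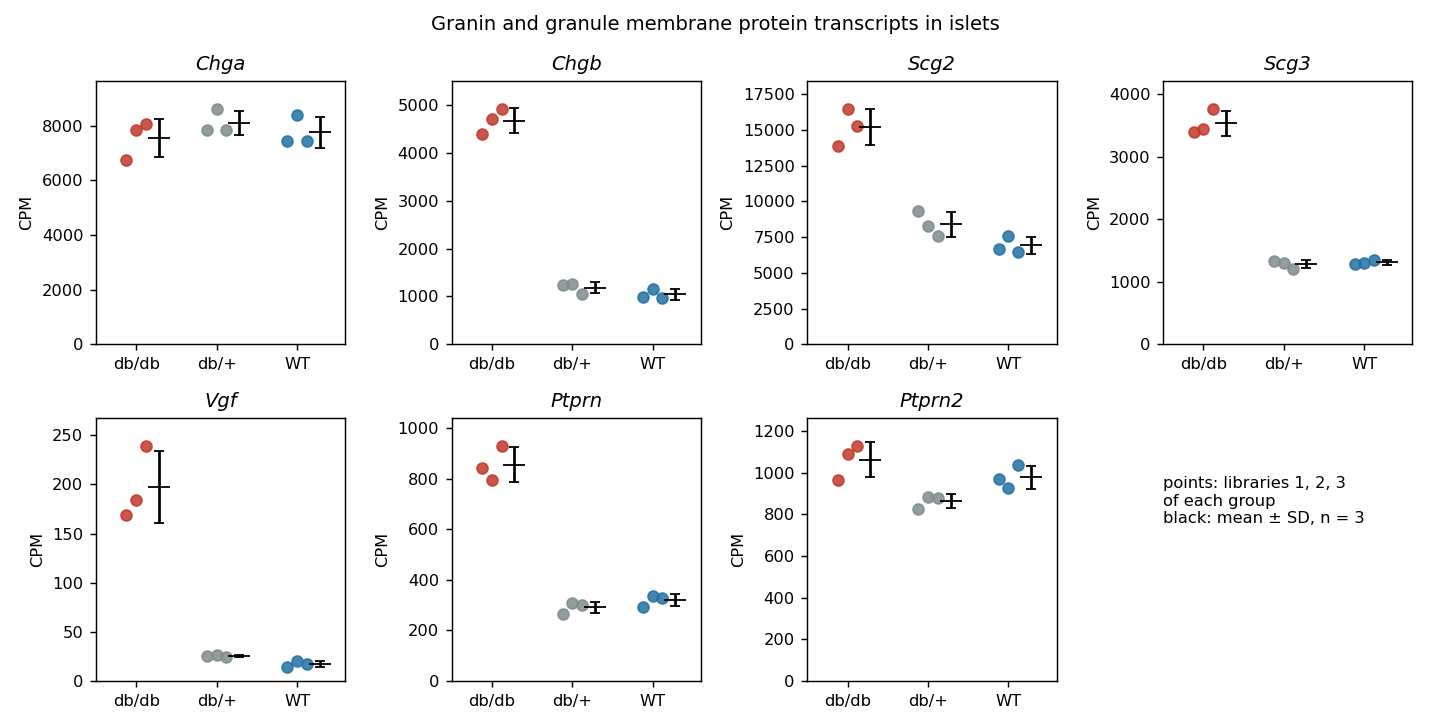
CPM of each of the 7 genes in every library, on linear axes that start at 0, with db/db left of db/+ and WT; points are libraries and black marks give mean ± SD (n = 3). Chgb, Scg2, Scg3, Vgf and Ptprn stand highest in the 3 db/db libraries, with no overlap, and the Chga points of the 3 groups overlap.

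Chga, on chromosome 12 (102554941 to 102565027), encodes chromogranin A, the precursor of vasostatin, pancreastatin and other peptides. It stood at 6751, 7859 and 8045 CPM in the db/db libraries, 7831, 8603 and 7844 CPM in db/+ islets and 7448, 8403 and 7423 CPM in WT. The groups overlapped, and the lowest value was that of db/db 1, the library with the most acinar and the most ribosomal RNA-overlapping counts. The log2 fold change was -0.04 ± 0.10 for db/db against WT (95% interval -0.26 to 0.18, adjusted p = 0.786) and -0.10 ± 0.10 for db/db against db/+ (-0.32 to 0.12, adjusted p = 0.465). A p above the threshold does not show equal levels. With acinar content as a covariate the value against WT was 0.13 (adjusted p = 0.546).

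Chgb, on chromosome 2 (132781642 to 132795079), encodes chromogranin B, a granin of beta and other endocrine cells. Its level was 4397, 4710 and 4913 CPM in db/db, 1247, 1252 and 1057 CPM in db/+ islets and 995, 1164 and 962 CPM in WT. The lowest db/db library was thus far above the highest of the other 6. Chgb rose in db/db by 2.17 ± 0.11 against WT (adjusted p = 6.55e-09) and by 1.98 ± 0.11 against db/+ (adjusted p = 1.56e-08).

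Scg2, on chromosome 1 (79434366 to 79440026), encodes secretogranin II, the precursor of secretoneurin. It had 13895, 16459 and 15255 CPM in db/db, against 9312, 8314 and 7583 CPM in db/+ islets and 6687, 7594 and 6487 CPM in WT. Every db/db library exceeded every other one, while the db/+ and WT ranges overlapped slightly, in db/+ 3 and WT 2. Scg2 rose in db/db by 1.13 ± 0.11 against WT (adjusted p = 3.38e-06) and by 0.86 ± 0.11 against db/+ (adjusted p = 4.18e-05).

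Scg3, on chromosome 9 (75643366 to 75685959), encodes secretogranin III, which binds cholesterol-rich granule membrane and holds chromogranin A there. Its 3 db/db libraries had 3399, 3440 and 3762 CPM, against 1336, 1301 and 1205 CPM in db/+ islets and 1277, 1304 and 1345 CPM in WT. The db/+ and WT libraries lay close together, and the db/db libraries stood apart from both. Scg3 rose in db/db by 1.43 ± 0.09 against WT (adjusted p = 4.49e-08) and by 1.46 ± 0.09 against db/+ (adjusted p = 4.02e-08).

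Vgf, on chromosome 5 (137025301 to 137033351), encodes a nerve growth factor-inducible granin that yields several bioactive peptides. It had the largest fold change of the 7, with 169, 184 and 239 CPM in db/db, 25.5, 26.4 and 24.3 CPM in db/+ islets and 14.04, 20.0 and 17.7 CPM in WT. The highest db/db value was that of db/db 3, and the lowest was still above every db/+ and WT library. Vgf rose in db/db by 3.52 ± 0.15 against WT (adjusted p = 1.86e-08) and by 2.96 ± 0.14 against db/+ (adjusted p = 5.78e-08).

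Ptprn, on chromosome 1 (75247035 to 75264497), encodes IA-2, whose cytoplasmic part is cut off upon exocytosis and can act on granule gene transcription in cultured insulinoma cells. It stood at 841, 796 and 930 CPM in db/db, 266, 308 and 300 CPM in db/+ islets and 291, 335 and 329 CPM in WT. The db/db libraries did not overlap with either group, and the db/+ and WT ranges did overlap. Ptprn rose in db/db by 1.43 ± 0.09 against WT (adjusted p = 8.73e-08) and by 1.55 ± 0.09 against db/+ (adjusted p = 4.20e-08).

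Ptprn2, the paralogue of Ptprn, spans chromosome 12 from 116485695 to 117278167. Its levels were 967, 1089 and 1128 CPM in db/db, 825, 885 and 878 CPM in db/+ islets and 969, 924 and 1037 CPM in WT. The db/db and WT ranges overlapped, and the db/db libraries lay above the db/+ ones. The difference was 0.12 ± 0.09 against WT (95% interval -0.07 to 0.31, adjusted p = 0.296), and Ptprn2 was called higher against db/+ at 0.30 ± 0.09 (adjusted p = 0.0155). The Ptprn2 call was lost without db/db 3 (adjusted p = 0.0613) or db/+ 1 (adjusted p = 0.0660), with library totals as the scale (0.08, adjusted p = 0.687), and with the title letter (adjusted p = 0.545) or the Y-linked counts (adjusted p = 0.511) as a covariate. The miRNA gene Mir153, the lncRNA genes Gm10421 and Gm5441 and the pseudogene Gm6750 overlap Ptprn2 and had at most 3 counts in a library, while the pseudogene Gm17807 there had 42 to 82 counts. The lncRNA gene Gm31336 also overlaps Ptprn2 but is not among the counted gene symbols, so its reads could not be checked. No RefSeq gene overlapped the other 6 genes.

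Against db/+ islets, 6 of the 7 genes were called higher in db/db, where 20.6% of all tested genes were called higher and 40.3% in either direction. The exception was Chga. The comparisons with WT and with db/+ share the db/db libraries, so they are not independent. Libraries that did not overlap between db/db and WT were found for 5 of the 7 genes and for 51.5% of all tested genes, and between db/db and db/+ for 6 of the 7 and for 52.2%. The same 5 genes, Chgb, Scg2, Scg3, Vgf and Ptprn, stayed called against WT and against db/+ in all 24 alternatives run, among them every library left out in turn and the removal of WT 1, WT 3 and db/db 1 together, which leaves 1 WT library that is assumed to vary like the others. With those libraries removed, db/db 2 and db/db 3 were high in Xist and near 0 in Y-linked genes, and the remaining libraries the reverse. That fit therefore cannot separate sex-linked counts from the db/db genotype. With Y-linked counts in the fit, log2 fold changes against WT were 2.08 (Chgb), 1.01 (Scg2), 1.36 (Scg3), 3.26 (Vgf) and 1.39 (Ptprn). That covariate was 7.47, 1.08 and 0.15 in db/db and 7.78 to 8.71 in the other libraries. Its effect was thus set mostly by db/db 1 against the other db/db libraries, and the fit is no adjustment for sex. With acinar content as a covariate the log2 fold changes were 2.38, 1.38, 1.57, 3.88 and 1.46 in the same order. With library totals as the scale the median of all genes against WT was -0.217, where TMM gave 0.006, and the 5 log2 fold changes were 1.95 for Chgb, 0.92 for Scg2, 1.22 for Scg3, 3.32 for Vgf and 1.21 for Ptprn.

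**Figure D2:**
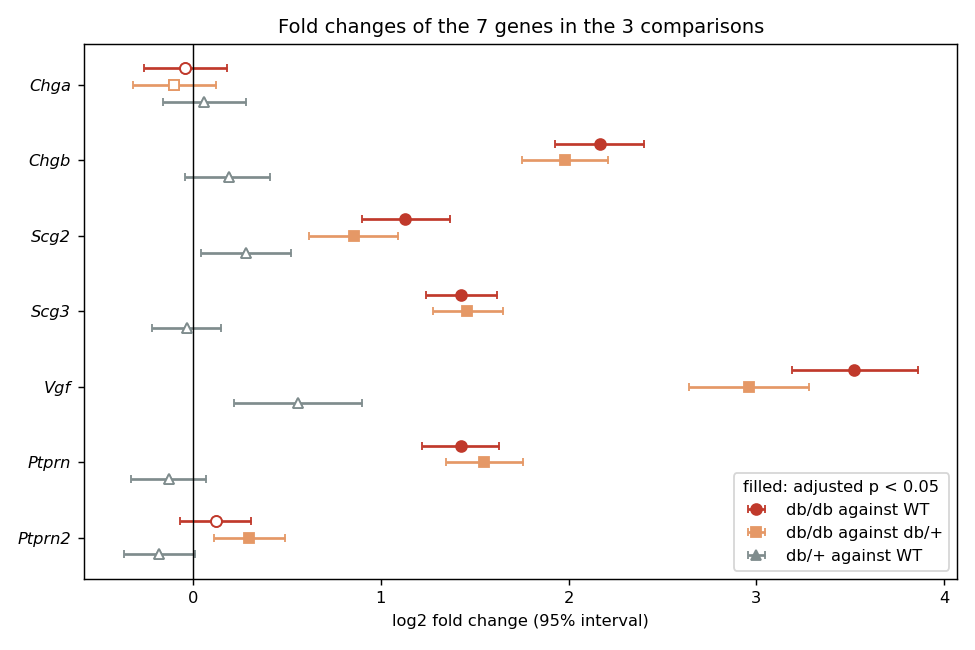
Log2 fold changes with 95% intervals for the 7 genes in the 3 comparisons; filled symbols had an adjusted p under 0.05 and open ones did not. Vgf (3.52 and 2.96) and Chgb (2.17 and 1.98) lie farthest to the right in both db/db comparisons, Chga lies near 0 in each, and every db/+ against WT symbol is open.

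Between db/+ and WT islets none of the 7 genes passed edgeR's test, where 1.43% of all tested genes were called, 0.606% higher and 0.82% lower. At an unadjusted p under 0.05 there were 2, Vgf and Scg2, where 15.6% of all tested genes had such a p. Vgf averaged 25.4 ± 1.05 CPM in db/+ islets and 17.2 ± 2.98 CPM in WT (SD, n = 3 each), with no overlap between the libraries (0.56 ± 0.16, adjusted p = 0.108). Groups did not overlap for Vgf and for Ptprn2, 2 of the 7, and for 22.5% of all tested genes. The DESeq2 Wald test called Vgf (adjusted p = 0.0118), as did the edgeR fits without a low-count filter (adjusted p = 0.00224), with acinar content (0.87, adjusted p = 0.0481) or Y-linked counts (adjusted p = 0.0377) as a covariate, and without db/db 1 (adjusted p = 0.0488). Over all alternatives its adjusted p ran from 0.00224 to 0.435. Scg2 averaged 8403 ± 868 CPM in db/+ islets and 6923 ± 590 CPM in WT (0.28 ± 0.11, adjusted p = 0.236). Chgb (0.19 ± 0.10), Chga (0.06 ± 0.10), Scg3 (-0.03 ± 0.09), Ptprn (-0.13 ± 0.09) and Ptprn2 (-0.18 ± 0.09) had adjusted p from 0.351 to 0.908.

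A ratio of counts within 1 library does not depend on how libraries are scaled. The ratio of Chgb to Chga was chosen with the results of both genes known, so it restates them on another scale and is no independent support. There were 0.651, 0.599 and 0.611 Chgb counts per Chga count in db/db, 0.159, 0.146 and 0.135 in db/+ and 0.134, 0.138 and 0.130 in WT. The log2 ratio was higher in db/db by 2.21 than in WT and by 2.08 than in db/+, with groups that did not overlap. The exact two-sided permutation test gave p = 0.1 for both, the smallest it can give for 3 libraries against 3, so that test cannot reach 0.05 here.

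The ratio of the paralogues was taken in the same way. Ptprn2 had 1.15, 1.37 and 1.21 counts per Ptprn count in db/db, 3.10, 2.87 and 2.93 in db/+ and 3.33, 2.76 and 3.15 in WT. The log2 ratio was lower in db/db by a difference of -1.31 from WT and -1.26 from db/+ (exact permutation p = 0.1 for both, again the smallest possible). For db/+ against WT the differences were 0.13 for Chgb to Chga (exact p = 0.2) and -0.05 for Ptprn2 to Ptprn (exact p = 0.6), with overlapping groups.

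**Figure D3:**
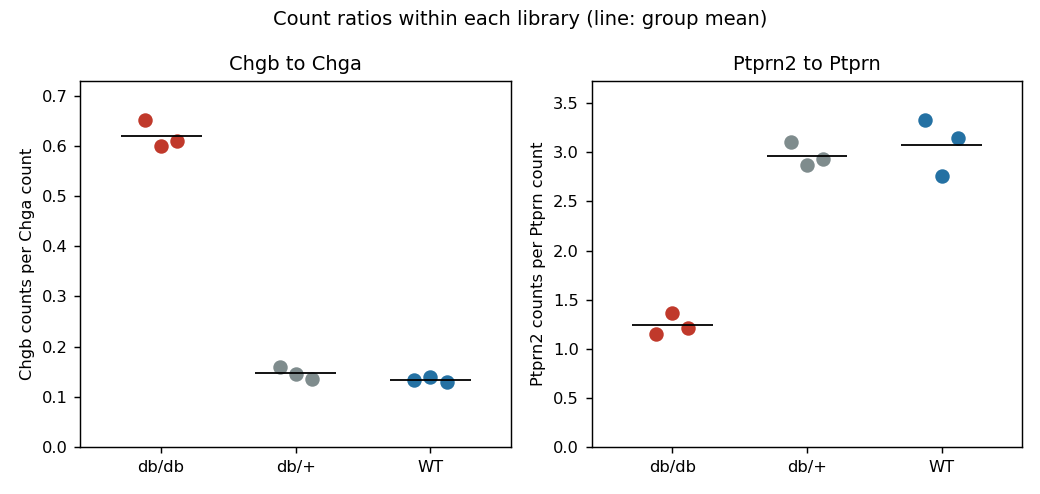
Counts of Chgb per count of Chga (left) and of Ptprn2 per count of Ptprn (right) within each library, on linear axes from 0, with a line at each group mean. The db/db libraries lie at 0.599 to 0.651 for Chgb to Chga, above the other 6, and at 1.15 to 1.37 for Ptprn2 to Ptprn, below the other 6.

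To set the genes beside one another, levels were divided by the summed exon length of each gene, from 1882 bases for Chga to 5210 for Ptprn2. In db/db the order per kilobase was Scg2 at 6118 ± 516 CPM per kilobase, Chga at 4013 ± 372, Chgb at 1706 ± 94.7, Scg3 at 1571 ± 88.3, Ptprn at 242.0 ± 19.3, Ptprn2 at 204 ± 16.2 and Vgf at 77.3 ± 14.5 (SD, n = 3). Of these neighbours, Chgb and Scg3 overlapped in their libraries. In WT the order was Chga at 4122 ± 297 CPM per kilobase, Scg2 at 2786 ± 237, Scg3 at 582 ± 15.4, Chgb at 380 ± 39.4, Ptprn2 at 188 ± 10.9, Ptprn at 90.1 ± 6.72 and Vgf at 6.75 ± 1.17, with no overlap between neighbours. The db/+ libraries had the WT order, with Chga at 4300 ± 235 CPM per kilobase and Scg2 at 3382 ± 349. Scg2 and Chga, Chgb and Scg3, and Ptprn and Ptprn2 thus stood in opposite order by their means in db/db and in both other groups.

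Among 13540 tested genes with a length, ranked by mean CPM per kilobase, Scg2 was at rank 4 in db/db and rank 9 in both db/+ and WT. Chga stayed among the most abundant of the ranked genes, at rank 7 in db/db, 5 in db/+ and 6 in WT. The ranked genes were 80.5% of those tested, and genes without a length could not be ranked. Chgb was at rank 20 in db/db, 49 in db/+ and 42 in WT, and Vgf at rank 368 in db/db, 4568 in db/+ and 6113 in WT. Per kilobase the 7 genes summed to 12784, 14554 and 14452 CPM in db/db, 9201, 9219 and 8404 CPM in db/+ islets and 7853, 8806 and 7803 CPM in WT. Chga made up 28.1%, 28.7% and 29.6% of that sum in db/db, 45.2%, 49.6% and 49.6% in db/+ and 50.4%, 50.7% and 50.5% in WT.

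**Figure D4:**
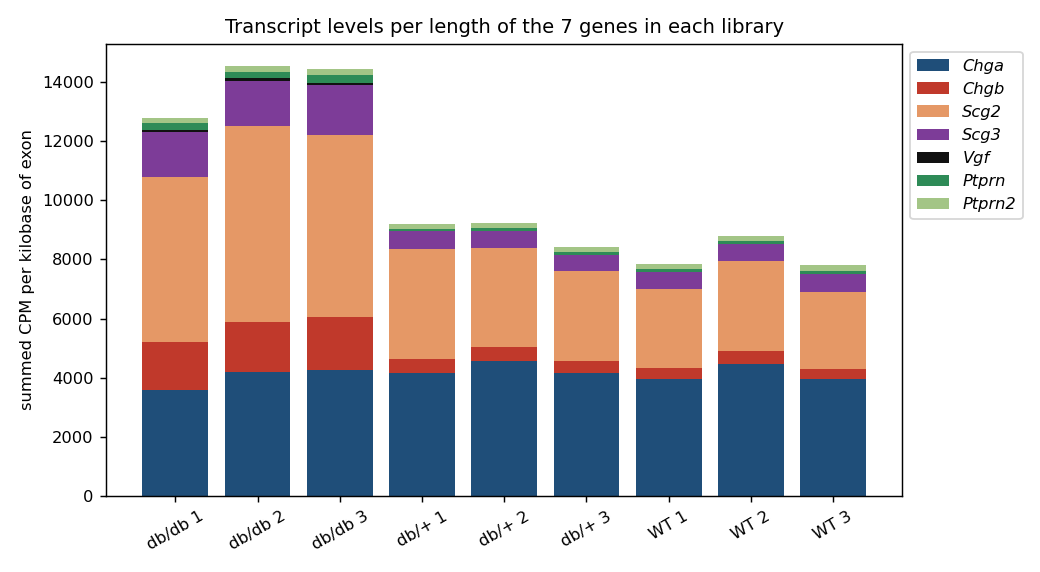
Stacked CPM per kilobase of exon for the 7 genes in each of the 9 libraries, on a linear axis from 0. The db/db bars are taller (12784 to 14554) than the db/+ and WT bars (7803 to 9219), while the dark blue Chga part is of like height in each and Vgf is barely visible.

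The rest of the granule was followed in a list of 43 genes of granule biogenesis, traffic and cargo processing, of which all were tested. Against WT, 21 were called higher and 10 lower in db/db, beside 21.8% and 19.9% of all tested genes, with a median log2 fold change of 0.21. Against db/+ the counts were 20 higher and 9 lower (20.6% and 19.7% of all tested genes), with a median of 0.15. The split depended on the scale. With library totals it was 9 higher and 13 lower against WT, and 11 higher and 15 lower against db/+. On that scale 44.5% of all tested genes were called against WT and 43.2% against db/+. The medians of all tested genes were then -0.217 and -0.215, so the whole table was shifted down as well. With Y-linked counts in the fit the split of the list was 9 higher and 10 lower against WT, where 27.9% of all tested genes were called.

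The 3 risen genes of the list with the smallest adjusted p were Pam, Cadps2 and Scg5. Pam, the enzyme that amidates peptides in the granule, stood at 3588, 3427 and 3666 CPM in db/db, 1135, 1046 and 983 CPM in db/+ islets and 1012, 953 and 952 CPM in WT. Its rise against WT was 1.87 ± 0.09 (adjusted p = 4.33e-09), within the range of the 5 called members. Cadps2, a priming factor of dense-core granules, averaged 42.1 ± 3.15 CPM in db/db islets and 16.2 ± 1.59 CPM in WT (SD, n = 3 each; 1.37 ± 0.13, adjusted p = 1.93e-06). Scg5 encodes the granin-like chaperone of the convertase Pcsk2 and averaged 834 ± 16.4 CPM in db/db islets and 454 ± 16.5 CPM in WT (0.88 ± 0.09, adjusted p = 3e-06). Pam (1.76), Cadps2 (1.43) and Scg5 (0.68) were also called higher against db/+. The fallen genes with the smallest adjusted p were Exph5, Sort1 and Slc30a8. Exph5, a Rab27 effector, fell by 1.14 ± 0.10 against WT (adjusted p = 8.43e-07), and the sorting receptor gene Sort1 fell by 0.99 ± 0.08 (adjusted p = 1.11e-06). Slc30a8, the granule zinc transporter, had 184, 334 and 259 CPM in db/db, 1357, 1428 and 1417 CPM in db/+ islets and 1407, 1261 and 1400.2 CPM in WT (-2.39 ± 0.18 against WT, adjusted p = 1.93e-06). None of the 43 passed edgeR's test between db/+ and WT, where 8 of them and 15.6% of all tested genes had an unadjusted p under 0.05, and DESeq2 called 2 of them.

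**Figure D5:**
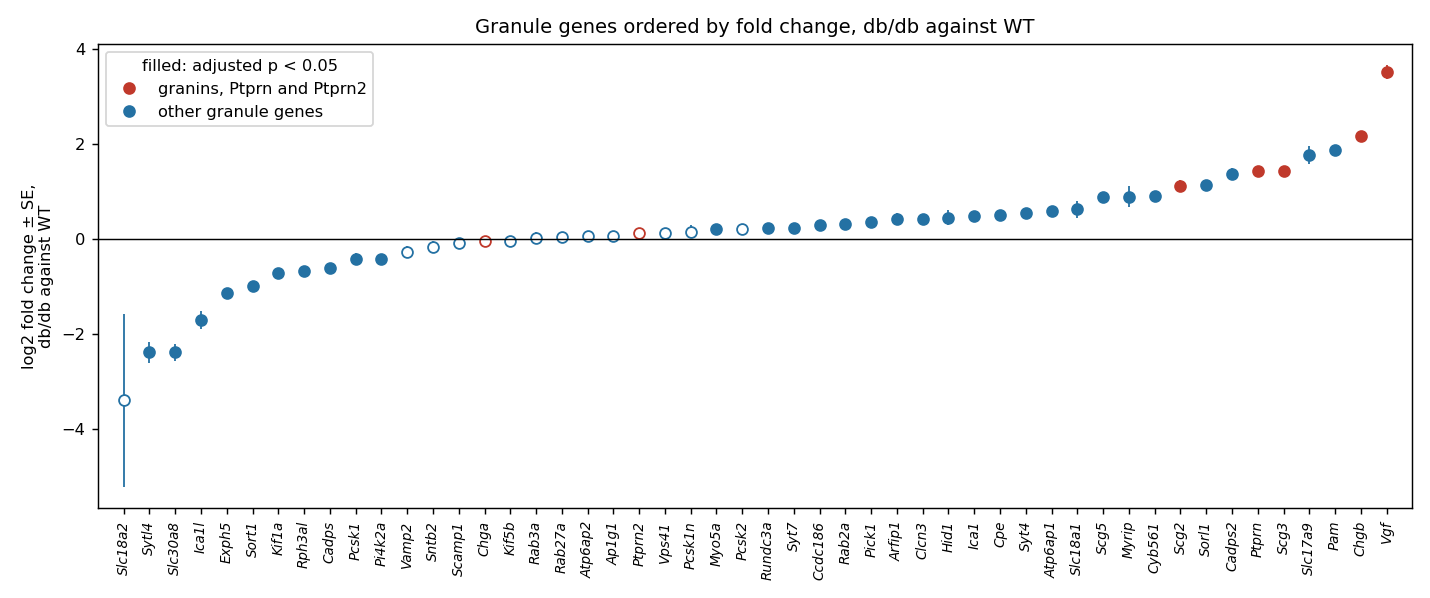
Log2 fold changes ± SE, db/db against WT, of the 7 genes (red) and the 43 other granule genes (blue), ordered by size; filled points had an adjusted p under 0.05. Vgf and Chgb stand at the upper end, with Pam next to them. Chga and Ptprn2 lie near 0, and Slc30a8 is near the lower end.

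Of 18 genes known to act on transcription or stability of granin and granule transcripts, 17 were tested. Against WT, 2 were called higher and 9 lower in db/db, beside 21.8% and 19.9% of all tested genes, with a median log2 fold change of -0.28. With acinar content as a covariate the split was 3 higher and 4 lower, and with Y-linked counts it was 1 and 6. The share of all tested genes called against WT also fell, from 41.7% to 22.8% with acinar content and to 27.9% with Y-linked counts. Against db/+ 2 were higher and 8 lower, beside 20.6% and 19.7% of all tested genes. With the title letter as a covariate the counts were 0 and 5, where 12.1% of all tested genes were called. Between db/+ and WT, Jun (0.69 ± 0.11, adjusted p = 0.0144) and Fos (0.53 ± 0.11, adjusted p = 0.0412), named after their values were seen, were called higher by edgeR. In that comparison 0.606% of all tested genes were called higher. None of the list was called there without db/+ 1 or without db/+ 2, and 1 gene was called with library totals, non-robust dispersion or the title letter, without db/db 2, db/db 3 or any single WT library, and without WT 1, WT 3 and db/db 1.

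Rest, a repressor of neuronal and endocrine genes that has granin genes among its targets, had 20.3, 9.66 and 9.16 CPM in db/db, 7.44, 5.65 and 6.53 CPM in db/+ islets and 7.70, 5.599 and 5.69 CPM in WT. It was called against WT (1.02 ± 0.29, adjusted p = 0.0146) and was not called without WT 2 (adjusted p = 0.0556) or WT 3 (adjusted p = 0.0541), with the title letter (1.18, adjusted p = 0.0862) or without WT 1, WT 3 and db/db 1 (0.74, adjusted p = 0.0555). The Rest level was highest in db/db 1, without which the value was 0.56 against WT (adjusted p = 0.0381) and 0.53 against db/+ (adjusted p = 0.05, not called). With acinar content as a covariate the Rest value against WT was 0.20 (adjusted p = 0.721). The cAMP-responsive factor gene Crem had 49.3, 47.4 and 53.7 CPM in db/db libraries and 26.7, 42.3 and 39.8 CPM in WT (0.47 ± 0.16, adjusted p = 0.0339). The Crem call ended without db/db 1, db/db 2, db/db 3 or db/+ 1, with values of 0.42 to 0.51, and without WT 1 (0.28). It also ended with library totals (0.26, adjusted p = 0.18), the title letter (0.33, adjusted p = 0.325) or Y-linked counts (0.46, adjusted p = 0.212), and without WT 1, WT 3 and db/db 1 (0.25, adjusted p = 0.258). The endocrine factor genes Neurod1 (-1.03 ± 0.09, adjusted p = 1.4e-06) and Pax6 (-0.54 ± 0.08, adjusted p = 0.000152) and the early response gene Egr1 (-0.62 ± 0.12, adjusted p = 0.00115) fell in db/db against WT. The Egr1 call ended with acinar content (adjusted p = 0.0634) or Y-linked counts (adjusted p = 0.0572) as a covariate.

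Markers of the other islet cells that use granins were followed beside them, where 21.8% of all tested genes were called higher and 19.9% lower against WT. Alpha cell markers were called lower for 7 and higher for 2 of 9 against WT, and their sum was 10025 to 11529 CPM in db/db, 17089 to 20545 CPM in db/+ islets and 10716 to 19282 CPM in WT. Delta and PP cell markers were lower for 1 of 6 and higher for 0 by edgeR against WT, summing to 3010.3 to 3568 CPM in db/db, 3645 to 4680 CPM in db/+ islets and 3297 to 3922 CPM in WT. Of 9 beta cell markers 6 were lower and 1 higher. Schwann cell and neuron markers, which stand for nerve cells with granules of their own, summed to 143 to 177 CPM in db/db, 171 to 231 CPM in db/+ islets and 160 to 239 CPM in WT. Within that list Dbh had 17.4 CPM in WT 2 and 0.248 CPM or less in every other library. Slc18a2 of the granule list had 15.0 CPM in WT 2 and 3.15 CPM or less elsewhere. Th did not set WT 2 apart (72.2 CPM, against 73.1 CPM in db/db 2). WT 2 is the only WT library left when WT 1, WT 3 and db/db 1 are removed. Acinar (6 of 12), duct (7 of 8), endothelial (5 of 8), macrophage (2 of 8) and stellate and pericyte markers (7 of 8) were called higher against WT with 0 lower by edgeR. The shares for macrophage markers and for delta and PP cell markers are near those over all tested genes. The part of these cells in the granin values was not tested beyond the acinar covariate.

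Genes with the pattern most like each member were found by Pearson's r of log2 CPM over the 9 libraries among 3775 genes with a mean of at least 50 CPM. Since the db/db libraries stand apart from the other 6 in many genes, high r mostly repeats that split and is a description with no test. Nearest to Chgb were Nucb2 (0.998), the nucleobindin gene from which nesfatin is made, Serinc1 (0.997) and Pld3 (0.997). Nearest to Vgf were the protein disulfide isomerase gene P4hb (0.998), Ccng1 (0.997) and the BiP nucleotide exchange factor gene Sil1 (0.996). Scg3 and Ptprn shared Inpp5f (0.996 and 0.994), Scg3 also had Rasgrf2 (0.996) and Serpina7 (0.995), and Ptprn had Slc26a2 (0.998) and Hapln4 (0.998). Scg2 was nearest to Epcam (0.994), Qars (0.993) and Sgpp1 (0.990). For the genes that were not called against WT the nearest r was lower, 0.961 for Chga with Klhl22, followed by Hip1r (0.901) and C2cd4b (0.874), and 0.956 for Ptprn2 with Tpr, followed by Syt7 (0.952) and Trak1 (0.945).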

How the data were processed

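Total RNA of purified islets was sequenced after ribosomal RNA removal, per the labels' protocols. Reads were handled with bcl2fastq 2.20.0.422 and TopHat2 2.0.14 and the mm10 build, per the submitters' processing notes. The authors deposited whole-number read counts per gene symbol, without normalisation. The sources used here do not name the counting program, annotation or strand setting, so overlapping genes can share reads, and 1 column of the table matches no sample and was not used.

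Genes were filtered by filterByExpr (16826 kept), scaled by TMM and fitted with 1 term per group over 9 libraries in edgeR 4.0.16 and R 4.3.3 (robust; 6 residual degrees of freedom; common biological CV 0.129), and p values were adjusted by Benjamini-Hochberg over the tested genes. The SE is the size of the log2 fold change divided by the root of the F value. Totals of 8860024 to 11734886 counts put 3 counts at 0.238 to 0.412 CPM, which covers counting error only. The fit was first tested on simulated data. The 7 members and the gene lists were chosen with earlier results of these data known. Named from the granule and regulator lists are the 3 risen and 3 fallen genes with the smallest adjusted p in db/db against WT, and for each member the 3 genes with the highest r, leaving out predicted genes.

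Alternatives were other scale factors (DESeq2, upper quartile, library totals), filters and tools (DESeq2 1.42.0, voom in limma 3.58.1), non-robust dispersion, only the 2 compared groups, covariates (title letter, mean log2 CPM of acinar markers, log2 summed CPM of 4 Y-linked genes), removal of genes that overlap ribosomal RNA or mark acinar cells, and 1 library left out at a time. The removal of WT 1, WT 3 and db/db 1 together was added after seeing the data. Gene positions are RefSeq's on GRCm38.p6, and exon lengths, for lengths only, came from a mouse annotation of an older assembly that held 80.5% of tested genes. Figures were drawn with matplotlib 3.10.9.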

Additional observations from a re-analysis of the deposited data

How the results depend on the processing

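Chgb, Scg2, Scg3, Vgf and Ptprn kept their direction and calls in both db/db comparisons in each of the 24 alternatives, so 5 genes stayed called against WT and 5 or 6 against db/+. No paired analysis was made because the labels link no library of a group to a library of another group. The labels also give no replicate numbers, which here follow the order of the samples.

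Of all tested genes, 41.7% were called between db/db and WT, and 25.0% without a low-count filter (more genes tested), 26.3% with the title letter, 22.8% with acinar content as a covariate and 25.0% without WT 1, WT 3 and db/db 1. Against db/+ the 40.3% became 24.5% without the filter, 12.1% with the title letter and 26.2% with the Y-linked counts. The granule list had 19 called against WT with the Y-linked counts, where 27.9% of all tested genes were called, and 16 against db/+ with the title letter. Between db/+ and WT, 1.43% were called, and 2.57% without the filter, 3.76% by DESeq2, 0.707% by limma-voom, 0.273% with non-robust dispersion, 0.267% with the title letter, 0.511% with acinar content, 2.42% with the Y-linked counts and 0.544% without the 3 libraries. There DESeq2 called 2 granule list genes and the acinar fit 1, and 1 member, Vgf, was called in the fits named above. The causes were not tested.

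With 1 library left out, 33.6% to 41.1% were called between db/db and WT, 31.9% to 40.0% between db/db and db/+ and 0.135% to 2.50% between db/+ and WT, where leaving out any db/db or db/+ library, or WT 3, moved the share by over 1.5 times. Members called were 0 to 1 between db/+ and WT. The title letter and the Y-linked counts largely follow genotype, so an effect of sex or of that label cannot be told apart from genotype. This holds for the calls that these covariates end and for the db/db calls that stayed.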
